A study of Mus musculus with 24 samples.

Results

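Arginine is the substrate of several competing routes in myeloid cells. Arginases split it into urea and ornithine, inducible nitric oxide synthase turns it into nitric oxide and citrulline, and an amidinotransferase uses it to begin creatine synthesis. Ornithine then feeds the polyamines (putrescine, spermidine and spermine) through ornithine decarboxylase, or proline and glutamate through ornithine aminotransferase, while citrulline can be rebuilt into arginine. The genes examined cover these steps and were found by symbol in the authors' annotation of their count table. Those described are the transporter gene Slc7a2, the nitric oxide synthase Nos2, the citrulline-recycling genes Ass1 and Asl, the polyamine genes Odc1 and Srm, the ornithine aminotransferase Oat and the amidinotransferase Gatm. The whole set is 10 of the 55487 genes in the table, and all 10 were among the 14535 genes with enough counts to be tested.

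The study followed dendritic cells grown from mouse bone marrow with GM-CSF, in cultures from control mice and from mice bred to delete Arpc4 in CD11c-expressing cells. Arpc4 encodes a subunit of the Arp2/3 complex that nucleates branched actin. Control mice, called WT, carried the labels ARPC4 Flox/Flox CD11c-Cre -/-, and the knockout mice, called KO, carried ARPC4 Flox/Flox CD11c-Cre +/-, so that the floxed alleles were common to both. The Cre is driven by CD11c and acts in cells that express it, in mice of both sexes aged 8 to 10 weeks. Non-adherent cells from 3 mice per genotype were taken on days 7, 8, 9 and 10, giving 8 groups and 24 libraries. Cultures were replated into fresh medium on days 4 and 7, per the labels' protocols, and whether day 7 cells were taken before that day's replating is not stated, so the step from day 7 to day 8 and the replating cannot be told apart.

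Libraries held 19952047 to 31049798 counts. Arpc4 itself was measured at 188 to 199 CPM (a gene's count relative to the TMM-scaled total of its library) in WT and 155 to 182 CPM in KO on day 7, and at 208 to 242 CPM in WT and 173 to 185 CPM in KO on day 10. Its KO against WT change was between -0.28 and -0.18 on the log2 scale over the 4 days, did not pass the test (adjusted p of 0.18 to 0.69, edgeR), and comes from whole-gene counts; which exons were floxed is not given in the sources used here, so these counts do not check the deletion. All 10 genes of a dendritic cell marker list were counted, with a sum of 2396 to 8057 CPM per library, whereas a list of 6 lymphocyte markers summed to at most 9.78 CPM. Lists of 10 neutrophil and 10 macrophage markers summed to 3138 to 7239 CPM and to 1308 to 2843 CPM. These sums thus do not show that the cultures held dendritic cells alone. Mouse numbers recur across days (63, 65 and 66 in WT, 64, 67 and 68 in KO). In KO they went against the Y-linked transcript Ddx3y: the library high in Ddx3y was number 64 on days 7 and 9, 68 on day 8 and 67 on day 10, while in WT it was number 63 on every day. The comparisons below are between groups and do not use the numbers. In bulk RNA, fewer cells of a type and less RNA per cell cannot be told apart. Nothing in the labels says more of the replicates than the mouse number, and the p-values measure the spread between these libraries.

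The main pattern was a step between day 7 and day 8 in both genotypes. A pair of polyamine synthesis genes (Odc1, Srm), the citrulline-to-arginine enzyme gene Ass1 and the transporter gene Slc7a2 rose 1.76- to 2.66-fold, and Gatm fell to 0.477 of its day 7 level in WT and 0.441 in KO. Nos2 varied widely between libraries and did not pass the test in any of the 14 comparisons. No member differed between KO and WT past the threshold on any day. A call means an adjusted p under 0.05 (edgeR quasi-likelihood test, Benjamini-Hochberg over the 14535 genes). In WT, 8 of 10 members were called between days 7 and 8, 7 higher and 1 lower, where 43.4% of all genes were called, 21.5% higher and 22% lower. In KO, 5 of 10 were called, 4 higher and 1 lower, where 42% of all genes were called, 21.1% higher and 20.9% lower.

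**Figure D1:**
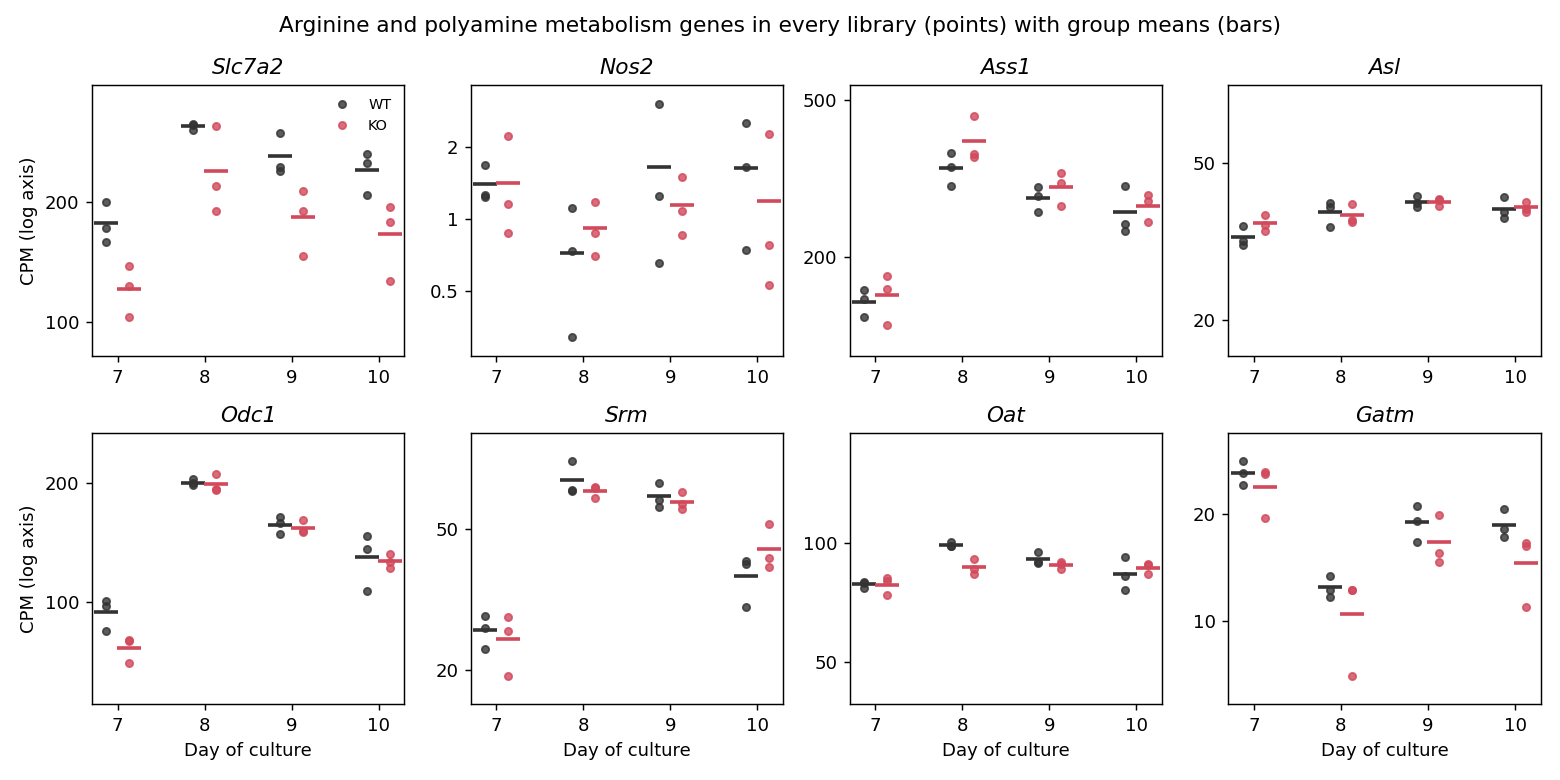
Each point is the CPM of 1 of the genes described in 1 library (log axis, scaled for each panel), with day of culture on the horizontal axis, WT in grey, KO in red, and a bar at each group mean of 3 libraries. Odc1, Srm, Ass1 and Slc7a2 step up from day 7 to day 8 and Gatm steps down, while Nos2 libraries of 1 group lie up to 4.67-fold apart.

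Promoters were read for the members that the promoter table holds, Ass1, Odc1, Oat and Gatm, because 3 of these genes made the day 8 step and Oat moved by less. The sequences are RefSeq's, on GRCm38.p6, and each stretch ends where the gene starts in RefSeq or in GENCODE M21, whichever comes first, except that the short Ass1 window lies before the RefSeq start and past that of GENCODE. Both strands of the 250 bases before the RefSeq start were searched for an E-box (CACGTG, the site of Myc and Max), a GC box (GGGCGG) and a CCAAT box (CCAAT). These 3 motifs were present in 6.02%, 32.7% and 33.8% of 32851 such windows. Capitals mark a motif on either strand.
Odc1, chr12:17544623-17544793, plus strand: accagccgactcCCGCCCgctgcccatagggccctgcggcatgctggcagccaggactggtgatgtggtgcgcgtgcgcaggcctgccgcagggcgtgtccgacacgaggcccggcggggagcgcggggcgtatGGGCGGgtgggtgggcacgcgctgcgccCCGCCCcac
Ass1, chr2:31470222-31470251, plus strand: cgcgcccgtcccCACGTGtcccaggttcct
Gatm, chr2:122611304-122611527, minus strand: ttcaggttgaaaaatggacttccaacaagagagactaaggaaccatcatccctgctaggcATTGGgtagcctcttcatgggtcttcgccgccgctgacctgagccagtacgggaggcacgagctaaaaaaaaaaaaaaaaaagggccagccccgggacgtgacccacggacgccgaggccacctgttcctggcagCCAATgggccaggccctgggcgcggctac
Oat, chr7:132576399-132576648, minus strand: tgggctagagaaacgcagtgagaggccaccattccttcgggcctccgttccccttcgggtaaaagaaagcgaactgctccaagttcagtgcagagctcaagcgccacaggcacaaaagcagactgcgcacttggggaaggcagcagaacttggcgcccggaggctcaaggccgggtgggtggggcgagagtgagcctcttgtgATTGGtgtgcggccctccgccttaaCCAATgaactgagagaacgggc

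The Odc1 window held 4 GC boxes, 3 of them in the stretch shown, and neither an E-box nor a CCAAT box. The Ass1 window held 1 E-box, beginning at base -36 from the RefSeq start, and 1 GC box; the 30 bases around the E-box are shown. The windows of Gatm and Oat each held 2 CCAAT boxes, on opposite strands, and neither of the other motifs. A match is a description of the letters and not a site. The absence of a motif holds only for the 250 bases searched, as no other part of these genes was read.

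Slc7a2 encodes CAT2, a cationic amino acid transporter that brings arginine into macrophages and dendritic cells; the gene spans chr8:40862396-40922308 (GENCODE M21, GRCm38). In WT it was measured at 201, 172 and 159 CPM at day 7, 304, 316 and 314 at day 8, 246, 240.3 and 299.5 at day 9, and 265, 252 and 209 at day 10, in the order of mice 63, 65 and 66. In KO the values were 123, 102 and 138 CPM at day 7, 311, 191 and 219.9 at day 8, 190.4, 147 and 214 at day 9, and 126, 179 and 195 at day 10, in the order of mice 64, 67 and 68. In CPM, every KO library lay below every WT library of the same day on days 7, 9 and 10. On day 8 the KO library numbered 64 was within the WT range. In TPM, a scale that divides by gene length, the day 10 groups overlapped (70.8 to 97.6 in WT, 50.7 to 73.9 in KO). The KO against WT change was -0.55, -0.37, -0.51 and -0.54 on the log2 scale on days 7 to 10, each with an SE of 0.18. None passed the edgeR test over all genes (adjusted p of 0.13, 0.84, 0.38 and 0.42), and the 95% intervals reached from -0.92 to -0.17 on day 7 and from -0.91 to -0.16 on day 10. The day 7 difference was called in 1 of 17 alternatives, a fit chosen after seeing the data that left out the 4 KO libraries of days 8 and 10 whose Ddx3y level went against their number, and the adjusted p ran from 0.047 to 0.43 over the 17.

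Over time Slc7a2 rose in both genotypes between days 7 and 8, by 0.81 (SE 0.18, adjusted p 0.001, edgeR) in WT and by 0.99 (SE 0.18, adjusted p 0.00018) in KO, and the ranges of those days did not overlap in either. By day 10 it was 0.45 above day 7 in WT (adjusted p 0.054) and 0.46 above it in KO (adjusted p 0.049). Both lay at the threshold: the WT change was past it in 8 of 17 alternative settings, DESeq2's Wald test among them, and the KO change in 6. On the TPM scale both were called, at 0.72 (adjusted p 0.0015) and 0.74 (adjusted p 0.0011), where the median of all genes was at 0.21 and 0.25. In edgeR the day 10 change did not differ between genotypes past the threshold (difference 0.01, 95% interval -0.51 to 0.54).

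Nos2, which encodes inducible nitric oxide synthase and spans chr11:78920787-78960254, was the least abundant of the genes described. It was at 0.22 to 2.24 TPM (a scale that divides by gene length) over the 24 libraries. Its CPM ranged from 0.319 to 1.69 in WT on days 7 and 8, reached 3.04 in WT mouse 66 on day 9, and ranged from 0.53 to 2.27 in KO over all days. The KO against WT change was 0.02, 0.33, -0.53 and -0.46 on days 7 to 10 (SE 0.55 to 0.61), and all 4 pairs of groups overlapped. From day 7 to day 8 Nos2 changed by -0.95 in WT (adjusted p 0.21, edgeR) and by -0.63 in KO (adjusted p 0.41). The WT libraries of those days did not overlap in CPM but did in TPM. From day 8 to day 9 Nos2 changed by 1.19 in WT (adjusted p 0.25, edgeR) and by 0.33 in KO (adjusted p 0.83). Its median coefficient of variation within groups was 52.2%.

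Ass1 encodes argininosuccinate synthase, which joins citrulline and aspartate in the first step of rebuilding arginine, and spans chr2:31470207-31520672. It had the highest mean TPM of the 10 members in every group, from 169 in WT on day 7 to 528 in KO on day 8. WT libraries held 141, 165 and 157 CPM at day 7, 339, 302 and 367 at day 8, 286, 261 and 300.5 at day 9, and 243, 233 and 303 at day 10. KO libraries held 134, 179 and 166 CPM at day 7, 455, 365 and 358 at day 8, 269, 309 and 328 at day 9, and 245, 278 and 287 at day 10. Every day 8, 9 and 10 library lay above every day 7 library of its genotype. The rise to day 8 was 1.13 on the log2 scale in WT (SE 0.13, adjusted p 6.1e-07, edgeR) and 1.30 in KO (SE 0.13, adjusted p 1.1e-07), a 2.18- and a 2.46-fold increase. At day 10 it was still 0.75 above day 7 in WT (adjusted p 9.5e-05) and 0.76 above it in KO (adjusted p 1e-04). The genotypes overlapped on all 4 days, and the largest KO against WT change was 0.22 on day 8 (95% interval -0.03 to 0.48, adjusted p 0.86).

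Asl, the gene of argininosuccinate lyase, which releases arginine in the next step, spans chr5:130011258-130029247 and moved far less. Its libraries lay between 30.9 and 41.2 CPM. In WT it rose by 0.21 from day 7 to day 8 (SE 0.07, adjusted p 0.016) and was 0.24 above day 7 on day 10 (SE 0.07, adjusted p 0.0087). In KO the same changes were 0.07 (95% interval -0.07 to 0.21) and 0.14 (95% interval -0.01 to 0.28), neither past the threshold. On the TPM scale both KO changes were called, at 0.28 (adjusted p 0.0038) and 0.42 (adjusted p 0.00015), where the median of all genes was at 0.17 and 0.25. The WT day 8 call was lost with no filter and without mouse 66, and the WT day 10 call without mouse 66. The difference of the day 8 changes between genotypes was -0.14 (SE 0.10, adjusted p 1), so these data do not show that the genotypes differed.

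Odc1 encodes ornithine decarboxylase, which makes putrescine in the first committed step of polyamine synthesis and is a known Myc target; it spans chr12:17544794-17551505. The WT libraries read 84.9, 98.2 and 101 CPM at day 7, 199.9, 205 and 198 at day 8, 158, 164 and 149 at day 9, and 107, 147 and 136 at day 10. The KO libraries read 80.6, 70.1 and 80 CPM at day 7, 192, 193 and 211 at day 8, 151, 162 and 150.3 at day 9, and 133, 127 and 122 at day 10. In CPM each genotype thus peaked on day 8 and lay lower on days 9 and 10, still above day 7, with no overlap between consecutive days. The rise to day 8 was 1.09 in WT (SE 0.09, adjusted p 2.1e-08, edgeR) and 1.37 in KO (SE 0.09, adjusted p 1.2e-09). From day 8 to day 9 it fell by 0.35 in WT (adjusted p 0.03) and by 0.36 in KO (adjusted p 0.042), but the WT fall was called in 13 and the KO fall in 10 of 17 alternatives. The WT call was lost on the TPM scale and without mouse 63, 65 or 66. The KO call was lost on the TPM scale, with only the groups compared, without the 4 doubted KO libraries, and without number 64, 65, 66 or 68. From day 9 to day 10 the changes were -0.27 in WT (adjusted p 0.11, edgeR) and -0.28 in KO (adjusted p 0.19), which did not pass the test. The WT change was called in 1 of 17 alternatives, the exchanged replicate block. In TPM the KO libraries of those days overlapped (139.9 to 172.4, then 117.1 to 142.9). On day 10 Odc1 was 0.46 above day 7 in WT (adjusted p 0.00058, edgeR) and 0.73 above it in KO (adjusted p 6.6e-06).

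The larger rise of Odc1 in KO went with a lower start. On day 7 all 3 KO libraries were below all 3 WT libraries, by -0.30 on the log2 scale (SE 0.09, 95% interval -0.49 to -0.11), which did not pass the test (adjusted p 0.11). On days 8, 9 and 10 the change was -0.01, -0.02 and -0.03, with an SE of 0.09 each and overlapping groups. The difference between the genotypes' day 8 changes was 0.28 (SE 0.13, p 0.04 before and 1 after adjustment, edgeR).

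Srm encodes spermidine synthase, which turns putrescine into spermidine, and spans chr4:148591503-148594993. WT cultures held 22.9, 26.2 and 28.4 CPM at day 7, 77.7, 63.8 and 64.6 at day 8, 67.2, 57.5 and 60.5 at day 9, and 30.1, 40.5 and 39.8 at day 10. KO cultures held 25.7, 19.2 and 28.2 CPM at day 7, 61.2, 65.4 and 65.6 at day 8, 58.8, 63.5 and 56.8 at day 9, and 41.4, 51.5 and 39 at day 10. Its day 8 rise was 1.41 in WT (SE 0.14, adjusted p 1.2e-07, edgeR) and 1.39 in KO (SE 0.14, adjusted p 1.4e-07), with the ranges of the days apart. From day 8 to day 9 its changes were -0.15 in WT (95% interval -0.43 to 0.12) and -0.10 in KO (95% interval -0.38 to 0.18), which did not pass the test; whether they differed from those of Odc1 was not tested. It then fell by 0.75 in WT from day 9 to day 10 (SE 0.14, adjusted p 0.0056), without overlap, a call lost without mouse 63 and without mouse 65 (adjusted p up to 0.18). The KO change over the same days was -0.44 (SE 0.13, adjusted p 0.16, edgeR), also without overlap. This KO change was called in 2 of 17 alternatives, with the exchanged replicate block and without number 67. On day 10 Srm was 0.51 above day 7 in WT (adjusted p 0.0062, and 0.077 without mouse 65, where the call was lost) and 0.85 above it in KO (adjusted p 8.4e-05). KO against WT was 0.26 on day 10 (95% interval -0.02 to 0.54, adjusted p 0.71), and the groups overlapped on every day.

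Oat, whose enzyme passes ornithine towards proline and glutamate, spans chr7:132557478-132576398 and had the tightest replicates of the members, with a median coefficient of variation of 3.34%. In WT it was measured at 79.1, 77 and 79.8 CPM on day 7 and 97.9, 100.3 and 98.1 on day 8, and in KO at 80.2, 73.9 and 81.4 on day 7 and 85.9, 83.5 and 91 on day 8. Day 8 lay above day 7 without overlap in both genotypes, and the KO libraries of day 8 all lay below those of WT. The rise was 0.33 in WT (SE 0.06, adjusted p 0.00019, edgeR) and 0.14 in KO (SE 0.06, adjusted p 0.062). The KO change was called in 3 of 17 alternatives: on the TPM scale (0.37, adjusted p 0.00027, with the median of all genes at 0.17), with the exchanged replicate block and without mouse 66. KO against WT on day 8 was -0.19 (SE 0.06, adjusted p 0.61), and the difference of the day 8 changes was -0.18 (SE 0.09, adjusted p 1). On days 9 and 10 the libraries lay between 76.2 and 94.9 CPM and the genotypes overlapped.

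Gatm encodes glycine amidinotransferase, which moves the amidino group of arginine to glycine to begin creatine synthesis, and spans chr2:122594467-122611303. Levels in WT were 24.1, 28.1 and 26.1 CPM at day 7, 13.4, 12.2 and 11.7 at day 8, 16.7, 19.1 and 21 at day 9, and 20.6, 18.1 and 17.3 at day 10. Levels in KO were 26.2, 19.5 and 25.9 CPM at day 7, 12.2, 12.2 and 7.01 at day 8, 14.6, 15.5 and 19.9 at day 9, and 16.2, 10.9 and 16.5 at day 10. The lowest levels were on day 8 in both genotypes, and day 9 lay above day 8 without overlap. The fall to day 8 was -1.07 in WT (SE 0.19, adjusted p 0.00011, edgeR) and -1.18 in KO (SE 0.19, adjusted p 4.3e-05). The partial return on day 9 was 0.61 in WT (adjusted p 0.06) and 0.66 in KO (adjusted p 0.059), and it was called in 8 and 6 of 17 alternatives, DESeq2's Wald test among them. On day 10 Gatm was below day 7 by -0.48 in WT (adjusted p 0.044) and -0.71 in KO (adjusted p 0.0049). Both calls were lost on the TPM scale, at -0.19 in WT (adjusted p 0.47) and -0.40 in KO (adjusted p 0.12), where the median of all genes was at 0.21 and 0.25, and the WT call was also lost without mouse 63, 65 or 66. KO lay below WT without overlap in CPM on day 10, at -0.36 (SE 0.18, adjusted p 0.71, edgeR). In TPM these groups overlapped (17.8 to 23.1 in WT, 11.5 to 19.8 in KO).

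**Figure D2:**
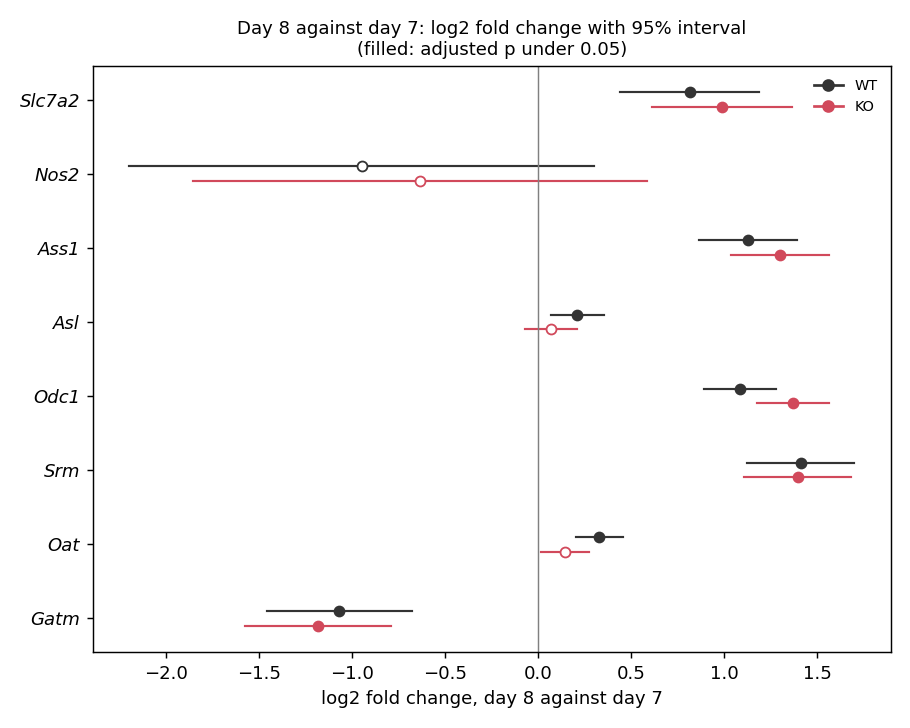
Log2 fold change of each gene described from day 7 to day 8 on the horizontal axis, WT in grey and KO in red, with 95% intervals from the edgeR fit; filled points have an adjusted p under 0.05. Odc1, Srm, Ass1 and Slc7a2 lie above 0.75 and Gatm below -1 in both genotypes, whereas the intervals of Nos2 span 0.

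The order of the mean levels, taken per length as TPM, shifted with the step. On day 7 in WT the order was Ass1 at 169, Oat at 88.4, Odc1 at 73.7, Slc7a2 at 51.5, Srm at 42.9, Gatm at 23.1, Asl at 17.8 and Nos2 at 0.84 TPM. On day 8 Odc1 (183) and Srm (133) stood above Oat (130) and Slc7a2 (106), and Asl (24.1) and Gatm (12.9) were lower. In KO the day 8 order had the same top 5 genes, Ass1 at 528, Odc1 at 189, Srm at 130, Oat at 119 and Slc7a2 at 85.1 TPM. Srm and Oat, neighbours in the WT order of day 8, overlapped in range, as the Srm libraries (124.7 to 150.7 TPM) spanned those of Oat (128.6 to 132.9 TPM).

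For the later days, 1 of 10 members was called in WT between days 8 and 9 (Odc1, lower), where 5.4% of all genes were called, and 1 of 10 between days 9 and 10 (Srm, lower), where 3.6% were. In KO, 1 of 10 was called between days 8 and 9 (Odc1, lower), where 2.33% of all genes were called. Between days 9 and 10 in KO, 0 of 10 were called by edgeR, where 0.0963% of all genes were; 2 had an unadjusted p under 0.05, as had 1738 of the 14535 genes, and DESeq2's Wald test called 0. For day 10 against day 7, 5 of 10 were called in each genotype, 4 higher and 1 lower. In WT these were Ass1, Asl, Odc1, Srm and Gatm, and 37% of all genes were called, 18.9% higher and 18.1% lower. In KO they were Ass1, Odc1, Slc7a2, Srm and Gatm, and 36.8% of all genes were called, 19.7% higher and 17.1% lower. The members' share between days 7 and 10 was thus not far from that of all genes.

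**Figure D3:**
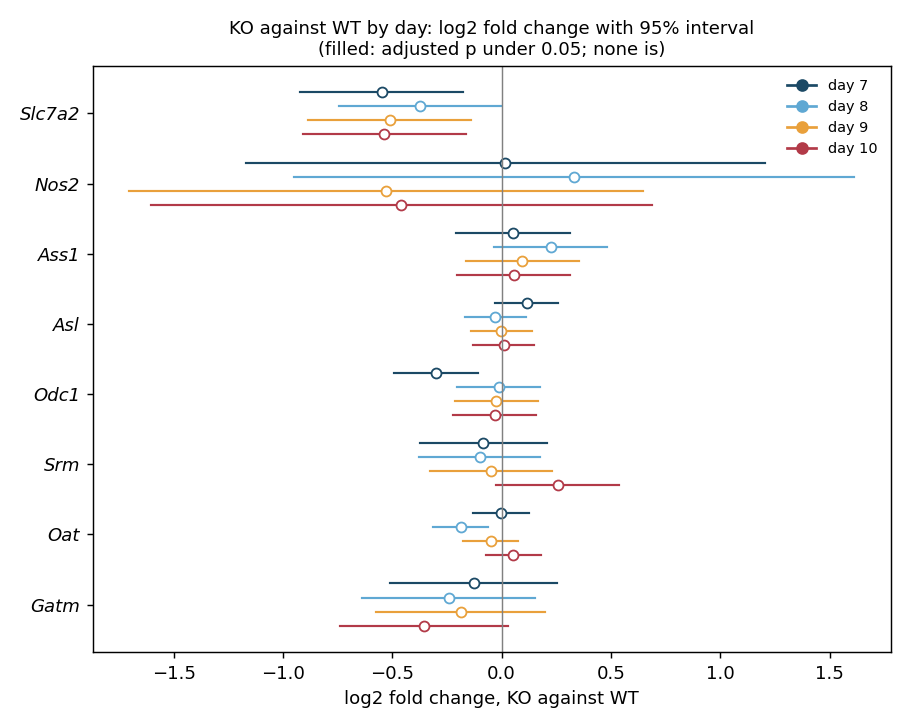
Log2 fold change of KO against WT for each gene described on days 7 to 10, with 95% intervals from the edgeR fit; open points did not reach an adjusted p under 0.05, and none did. Slc7a2 lies at -0.55 to -0.37 on all 4 days, and Odc1 is below 0 with an interval clear of it on day 7.

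Between genotypes, edgeR called 0 of 10 members on each day. Over all genes, its calls made up 1.45% at day 7, then 0.00688%, 0.00688% and 0.0138% at days 8, 9 and 10. Members with an unadjusted p under 0.05 numbered 3, 2, 2 and 1 on days 7 to 10, beside 2280, 859, 1185 and 1061 of the 14535 genes tested, and DESeq2's Wald test called 1 member on day 7 and 0 on the other days. Groups that did not overlap in CPM were seen for 2 members on day 7 (Odc1 and Slc7a2, lower in KO), where 26.2% of all genes did not overlap. At day 8 it was 1 member (Oat, lower), against 9.39% of all genes. At day 9 there were 2 (Slc7a2, lower, among them), against 14.1%, and at day 10 there were 2 (Slc7a2 and Gatm, lower), against 10.4%. The median KO against WT change of the 10 members was between -0.06 and -0.01 on the 4 days. The difference between the genotypes' time courses was called for 0 of 10 members, both from day 7 to day 8 (0.0275% of all genes called) and from day 7 to day 10 (0.0619%). Of these differences, 2 and 1 had an unadjusted p under 0.05, beside 685 and 917 of the 14535 genes, and DESeq2's Wald test called 0 of them.

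Other genes of the same pathways were taken from lists and are not members. The counts given for the lists from day 7 to day 8 stand beside 43.4% of all genes called in WT and 42% in KO for the same step. Around Odc1 and Srm, 13 of 15 listed genes of polyamine synthesis, catabolism and control were tested; 4 rose and 5 fell between days 7 and 8 in WT, and 4 rose and 6 fell in KO. The 4 that rose in both were Amd1, whose product makes the aminopropyl donor (0.34 in WT, 0.47 in KO), the spermine synthase gene Sms (0.33 and 0.47), Mtap, which salvages the by-product of both synthases (0.81 and 0.94), and the antizyme inhibitor gene Azin1 (0.42 and 0.52; the WT call was lost without mouse 65). Genes that fell in both included Paox, a polyamine oxidase (-1.41 and -1.50), Sat1, the acetyltransferase that starts polyamine breakdown (-0.84 and -0.97), and Oaz2, an antizyme that targets ornithine decarboxylase for degradation (-1.07 and -1.14). Sat1 was at 388 to 437 CPM in WT on day 7 and 224 to 238 on day 8. Smox, the spermine oxidase gene, was at -0.07 and 0.04 and was not called. These genes were chosen for naming after their values were seen, and the medians of the tested list were -0.08 in WT and -0.30 in KO, against 0.00 over all genes in both.

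**Figure D4:**
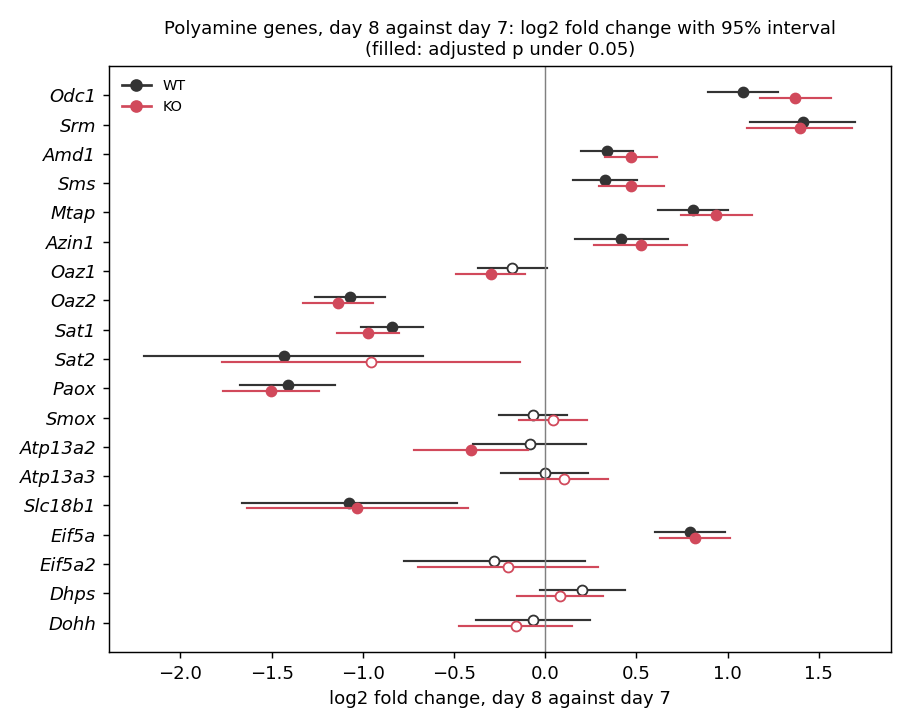
Log2 fold change from day 7 to day 8 for Odc1, Srm and the tested genes of the polyamine and hypusine lists, WT in grey and KO in red, with 95% intervals from the edgeR fit; filled points have an adjusted p under 0.05. Odc1, Srm, Amd1, Sms, Mtap, Azin1 and Eif5a lie above 0 and Oaz2, Sat1, Paox and Slc18b1 below 0 in both genotypes.

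Spermidine is also used to make hypusine on the translation factor eIF5A. Of the 4 genes of that list, Eif5a rose by 0.80 in WT and 0.82 in KO, while the genes of the modifying enzymes, Dhps (0.20 and 0.08) and Dohh (-0.07 and -0.16), and Eif5a2 were not called. Among 14 tested regulators of arginase, nitric oxide synthase and Odc1, 7 rose and 3 fell in WT and 6 rose and 2 fell in KO, where 43.4% and 42% of all genes were called. Myc, a transcription factor that acts on Odc1, rose by 1.61 in WT (SE 0.12) and by 1.68 in KO (SE 0.13) from day 7 to day 8. In WT it went from 21.9 to 25.9 CPM on day 7 to 62.1 to 78.8 on day 8. From day 9 to day 10 it fell by 0.86 in WT (SE 0.12, adjusted p 0.0022, edgeR), a call lost without mouse 63. The KO libraries held 66.3 to 85.3 CPM of Myc on day 9 and 46.3 to 58.2 on day 10. Over those days 0 of the 14 regulators were called in KO, where 0.0963% of all genes were. Whether the fall of Myc differed between genotypes was not tested. From day 7 to day 8 Mnt, a repressor that shares Myc's partner, fell by 0.73 in WT and 0.70 in KO. Irf4 rose by 0.90 (a call lost without mouse 63, 65 or 66) and 0.93, and Il4ra, the interleukin-4 receptor chain gene, by 1.09 and 0.83.

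Of 8 tested transporter genes other than Slc7a2, 1 was called for KO against WT on day 7, where 1.45% of all genes were called. This gene was Slc7a1, which encodes the housekeeping arginine transporter CAT1 and was lower in KO. It was at 41.9, 50.2 and 52 CPM in WT and at 25.1, 26.4 and 27.7 in KO, given from lowest to highest. These groups did not overlap, which was so for 26.2% of all genes. The change was -0.86 (SE 0.15, adjusted p 0.0062, edgeR), and the call was kept in 14 of 17 alternatives, being lost on the TPM scale and without mouse 65 or mouse 66. Aldh18a1 encodes the enzyme that makes the proline and ornithine precursor from glutamate. At day 7 it was at 22.5 to 31.2 CPM in WT and at 13.8 to 17.3 CPM in KO. The change was -0.76 (SE 0.18, adjusted p 0.043, edgeR) and was called in 9 of 17 alternatives. Its call was lost with the mouse number as replicate block, with the exchanged replicate block and in limma voom without a block. It was also lost on the TPM scale and without number 63, 65, 66 or 68. Aldh18a1 was the only gene called on day 7 among 11 tested genes of ornithine, proline and glutamate, where 1.45% of all genes were called. From day 7 to day 8 Slc7a1 rose by 0.92 in KO (SE 0.15) and was at -0.08 in WT (SE 0.14, not called), and Aldh18a1 rose by 0.87 in KO (SE 0.18) and was at 0.07 in WT. The difference between the genotypes' day 8 changes did not pass the test for either gene, at 1.00 for Slc7a1 (SE 0.21, adjusted p 0.11, edgeR) and 0.80 for Aldh18a1 (SE 0.25, adjusted p 0.69). On day 8 the Slc7a1 libraries overlapped, at 44.8 to 47 CPM in WT and 41.1 to 62.1 in KO.

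Of the 9 tested genes around nitric oxide and its cofactor tetrahydrobiopterin, 3 rose and 2 fell between days 7 and 8 in each genotype, where 43.4% (WT) and 42% (KO) of all genes were called. The 3 that rose were cofactor genes, Gch1 (0.62 in WT, 0.71 in KO), Spr (0.56 and 0.54) and Qdpr (0.53 and 0.39, the KO call being lost without the 4 doubted KO libraries), and Gch1 fell again between days 8 and 9 by 0.46 (adjusted p 0.0079) and 0.49 (adjusted p 0.0068). The WT fall was not called without mouse 63, 65 or 66, nor the KO fall without number 68, without the 4 doubted KO libraries or with only the groups compared. Of the 8 tested arginine methyltransferase genes, 5 rose and 0 fell in WT and 6 rose and 0 fell in KO, led by Prmt7 (0.99 and 1.13) and Prmt3 (0.86 and 0.94). In the creatine list, 3 genes were tested and 1 was called between days 7 and 8 in each genotype. This was Ckb, the gene of brain-type creatine kinase, which fell by 1.23 in WT and 1.10 in KO. Between days 8 and 9 Ckb was again the only gene of the list called, where 5.4% (WT) and 2.33% (KO) of all genes were. It rose by 0.80 in both (adjusted p 0.0091 and 0.015, edgeR). That later rise was called in 14 of 17 alternatives in WT, being lost without mouse 63, 65 or 66, and in 12 in KO, being lost with only the groups compared, without the 4 doubted KO libraries and without number 64, 66 or 68. Among 10 genes of alternative activation in macrophages, 6 rose and 1 fell in WT and 5 rose and 1 fell in KO. Ccl17 rose by 5.37 (SE 0.50) and 4.23 (SE 0.44) and Socs1 by 3.39 and 3.42, while Tgm2 fell by 2.55 and 2.22.

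Marker lists of cell types were summed in each library, and the part of those cells in these results was not tested. From day 7 to day 8, 21.5% of all genes were called higher and 22% lower in WT. In KO these shares were 21.1% and 20.9%, to be set beside the marker counts of that step. From day 7 to day 8 the sum of 5 eosinophil markers passed from 96.9-108 CPM to 42.9-51.7 CPM in the WT libraries, and in the KO libraries from 95.3-217 to 37.6-57.9, with 4 and 5 of 5 genes lower. The sum of 10 macrophage markers was 2064 to 2334 CPM in WT on day 7, 1932 to 2144 on day 8 and 1308 to 1365 on day 10, and in KO it was 2017 to 2843, 1535 to 2575 and 1339 to 1788. The sum of 10 dendritic cell markers was 2396 to 2995 CPM in WT on day 7, 2933 to 3531 on day 8 and 5249 to 7091 on day 10. In KO it was 2702 to 3341, 2663 to 4688 and 4740 to 8057 CPM. Neutrophil markers (10 genes) stood at 3138 to 4694 CPM in WT on day 7 and 3343 to 4076 a day later, with 2 genes lower, and in KO at 3778 to 7231 and then 3678 to 4638 CPM, with 4 genes lower. Of 6 monocyte markers, 2 rose and 2 fell in WT (491 to 718 CPM, then 475 to 501) and 1 rose and 3 fell in KO (556 to 1203 CPM, then 355 to 860). Of 6 mast cell and basophil markers, 2 rose in WT (74.6 to 95.3 CPM, then 93.3 to 128.5) and the KO sums were 80.8 to 241.3 CPM, then 107.5 to 205.6, with no edgeR call. On day 7, 1 of 10 macrophage and 1 of 6 monocyte markers were called higher in KO than in WT, where 1.45% of all genes were called. No other marker of these lists was called between genotypes on any day. No gene of these 6 lists was without counts.

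The genes with the most similar log2 CPM pattern over the 24 libraries were named for Nos2 and Odc1 by Pearson's r, as a description. For Nos2 they were Bnip3 (0.66), Setmar (0.657) and Pex11g (0.626). For Odc1 they were Psme3 (0.963), Atp5b (0.961) and Cct8 (0.958), whose libraries share the day groups and their totals.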

How the data were processed

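RNA was measured by poly(A)-selected, paired-end sequencing of 24 libraries. The authors deposited whole-number counts per gene, TPM per gene and a table of gene symbols. The submitters' processing notes name FastQC 0.11.9, STAR 2.6.1, DESeq2 1.22.2 and mm10 without their roles; the counter and its strand setting are not given in the sources used here.

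The counts were filtered (filterByExpr, 14535 of 28655 genes with a count), scaled by TMM and fitted in edgeR 4.0.16 (R 4.3.3) with a quasi-likelihood model of 8 groups over all 24 libraries, leaving 16 residual degrees of freedom. P-values were two-sided and adjusted over all genes tested (Benjamini-Hochberg) in each of 14 comparisons, with a threshold of 0.05. CPM uses the TMM factors. The script was tested on simulated counts. Within groups, libraries differed by more than sampling noise (chi-square per degree of freedom 7.66 to 138 over 24 pairs). The labels name 2 library kits and assign neither to a library, and no batch term was fitted.

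Of 55487 identifiers, 55394 matched GENCODE M21, which gave positions on GRCm38. Results for 2 of the 10 members are not reported here, and counts of members are over all 10. The members and lists were chosen with earlier results of these data known. Other genes were named by a rule, up to 3 called genes of the lists with the largest change per comparison and an average log2 CPM above 1. The rest were chosen after their values were seen. Same-numbered libraries correlated at a mean r of 0.29 in WT (16 of 18 pairs over 0.1) and 0.0253 in KO (9 of 18), over 10683 genes. Alternatives were DESeq2 1.42.0 (size factors and Wald test), other filters, only the groups compared, limma 3.58.1 on log2(TPM + 1), a fit with Xist as covariate, omission of each mouse and the mouse as a replicate block.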

Additional observations from a re-analysis of the deposited data

Results flagged for a closer look

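Slc7a1, the gene of the arginine transporter CAT1, moved in opposite directions in the 2 genotypes between day 7 and day 10. The gene was flagged because every WT mouse was lower on day 10 than on day 7 and every KO number was higher. The members and the genes named by rule were screened for this pattern on days 8 and 10, so it is no separate support. The difference of the changes (KO minus WT) was 1.08 on the log2 scale. The WT change was -0.44 (adjusted p 0.021, edgeR), a call lost on the TPM scale and without mouse 63, 65 or 66, and the KO change was 0.64 (adjusted p 0.002), called in 17 of 17 alternatives. In the edgeR test of that difference the adjusted p was 0.056, which missed the threshold. The WT libraries went from 41.9-52 CPM to 32.5-38.5 CPM and the KO libraries from 25.1-27.7 CPM to 36.3-47.1 CPM, so the days did not overlap within either genotype, whichever way the KO numbers are paired.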

How the results depend on the processing

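The 17 alternatives, 3 of them chosen after seeing the data, changed the sign of no called member change. The day 8 against day 7 calls of Odc1, Srm, Ass1, Slc7a2 and Gatm were kept in 17 of 17 in both genotypes, and the count of members called stayed within 1.5 times of the main count there. On log2(TPM + 1) the median of all genes moved by 0.165 (WT) and 0.172 (KO) from day 7 to day 8 and by 0.21 and 0.249 to day 10; relative to that, Odc1 rose by 1.15 and 1.42 to day 8, and Gatm was at -0.96 and -1.10. The calls not kept were as follows, and the cause was not tested. For KO against WT on day 7 (0 members), DESeq2's Wald test, no filter, the Xist covariate and leaving out the 4 doubted KO libraries each gave 1, and leaving out a mouse gave 0 to 1. For WT day 9 against day 8 (1), DESeq2's Wald test, no filter, only the groups compared, the Xist covariate, the replicate block with KO numbers exchanged and leaving out the 4 libraries gave 2, the TPM scale gave 0, and leaving out a mouse gave 0 to 2. For WT day 10 against day 9 (1), the exchanged replicate block gave 2 and leaving out a mouse 0 to 1. For WT day 10 against day 7 (5), no filter and the exchanged replicate block gave 8, and leaving out a mouse 3 to 8. For KO day 9 against day 8 (1), DESeq2's Wald test, no filter, a mean count of at least 50 and the Xist covariate gave 2, the exchanged replicate block 3, only the groups compared, the TPM scale and leaving out the 4 libraries 0, and leaving out a mouse 0 to 2. For KO day 10 against day 9 (0), the exchanged replicate block gave 1 and leaving out a mouse 0 to 1.

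With the mouse number of the labels as a replicate block (limma voom), the consensus correlation was 0.0046, and 0.23 with the KO numbers exchanged; the labels' block gave 0 members for KO against WT on day 7. Over all genes the calls moved more: KO against WT on day 7 had 211, between 11 (without mouse 66) and 523 (DESeq2), day 8 had 1, up to 194 without the 4 libraries, day 9 had 1, up to 90 (DESeq2), and day 10 had 2, between 1 and 80. WT day 9 against day 8 had 785 (17 to 2123), WT day 10 against day 9 had 523 (0 to 1124), KO day 9 against day 8 had 338 (0 to 1295) and KO day 10 against day 9 had 14 (0 to 2099). The day 10 against day 7 calls ran from 3269 to 6877 in WT (5376) and from 3200 to 7499 in KO (5353), and the differences of the changes from 0 to 24 (4) and 0 to 37 (9). With 3 mice per group, the SE of Nos2 (0.55 to 0.61 on the log2 scale for KO against WT) limits what could be detected.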
